A study of Mus musculus with 21 samples.

Results

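The 10 genes described here lie on mouse chromosome 7 within 20 Mb of Apoe, the gene that had been exchanged for a human APOE allele in every mouse of the series, and they differed between the APOE lines. They are Oscar, Gm15494, Eps8l1, Tnnt1, Gm15510, Zfp264, Gm45844, 9330104G04Rik, Gm45104 and Ccdc61, 10 of 55401 genes in the count table and of 1673 on chromosome 7 within 20 Mb of Apoe. They were selected on the log2 fold changes between lines and their adjusted p in these same mice, so the levels and differences between lines are given as a description without a test. The question behind them was whether genes that differ between lines sit near the replaced gene, where DNA from the strain used for gene targeting can travel with it.

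Forebrain RNA was sequenced from 3 mice of each parental line (E2H, E3H, E4H) and from 4 mice of each PS19 line (PS/E2H, PS/E3H, PS/E4H). Parental mice were homozygous for human APOE2, APOE3 or APOE4 at the mouse Apoe locus, were kept on C57BL6 and were taken at 9 to 10 months. The PS19 groups carried in addition a human tau transgene with the P301S mutation under the prion promoter (PS19, from a B6/C3H background, hemizygous). They were taken at hindlimb paralysis, so tau, paralysis, age at death and the strain background that came with PS19 cannot be told apart. PS19 mice were crossed to an APOE line and then back to APOE homozygotes. Total counts were 59265459 to 75932183 per mouse, with a median of 63751715. Sex was not balanced: 17 of 21 mice held Xist at 12188 to 36358 counts with 0 to 21 counts of the Y-linked Ddx3y, and 4 held Ddx3y at 2517 to 4246 counts (E4H replicate 3, PS/E2H replicate 2, PS/E4H replicates 1 and 4). The study's methods describe males with a few females, and these counts go the other way. Its females, 1 in E4H, 1 in PS/E2H and 2 in PS/E4H, match in number and group the mice with Ddx3y here. Markers of forebrain neurons were high in every group, with the summed level of 6 cortical neuron genes at 3616 to 4618 CPM (counts scaled to library size with TMM factors).

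A targeted replacement is made in embryonic stem cells, often of a strain other than the one the mice are then bred to, and chromosome around the new allele stays with it through backcrossing until recombination removes it. Genes in such a flanking segment can carry alleles of the donor strain with other levels of expression, and these alleles then mark the line along with the replaced gene. A line is also a single breeding lineage, so the APOE isoform, the flanking DNA and the rest of the line's history cannot be told apart by the design, and no genotype of the flanking DNA was analysed here.

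All 10 genes lay on 1 side of Apoe (chr7:19696109-19699188, minus strand, GRCm38), at lower coordinates, with starts 0.789 Mb to 16.1 Mb away. In order along the chromosome they were Oscar (chr7:3609813-3616157, minus strand), Gm15494 (chr7:4445697-4471285, minus), Eps8l1 (chr7:4460674-4480487, plus), Tnnt1 (chr7:4504570-4516382, minus), Gm15510 (chr7:5046949-5057116, minus), Zfp264 (chr7:6977246-6991087, plus), Gm45844 (chr7:7213017-7278289, minus), 9330104G04Rik (chr7:16871347-16874886, minus), Gm45104 (chr7:18396516-18400865, minus) and Ccdc61 (chr7:18890883-18910415, minus). In the same order their Ensembl identifiers in the files are ENSMUSG00000054594, ENSMUSG00000091177, ENSMUSG00000006154, ENSMUSG00000064179, ENSMUSG00000086604, ENSMUSG00000109176, ENSMUSG00000110105, ENSMUSG00000097842, ENSMUSG00000109209 and ENSMUSG00000074358. Oscar, Eps8l1, Tnnt1, Gm45844 and Ccdc61 are annotated as protein coding. Gm15494 and Gm15510 are antisense RNAs, 9330104G04Rik is a long intergenic RNA, Gm45104 is an unspliced transcript of uncertain class (annotated as TEC) and Zfp264 is a transcribed pseudogene of the zinc finger family.

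RefSeq start-site windows, from 250 bases before to 50 bases after a transcript start, were on hand for 6 of the 10 genes (8 windows, GRCm38.p6). The windows of Oscar (chr7:3616108-3616407, minus strand), the first start of Eps8l1 (chr7:4460447-4460746, plus), Gm15510 (chr7:5057067-5057366, minus) and 9330104G04Rik (chr7:16874837-16875136, minus) are shown because these were the genes with start-site sequence that stood furthest apart between lines. Each reads 5′ to 3′ on the strand of its gene, from the reference strain and not from these mice. Capitals mark 3 motifs on either strand. The TATA box was searched as TATAAA. The GC box, bound by SP factors, was searched as GGGCGG. The core of the PU box, bound by the myeloid factor PU.1, was searched as GAGGAA.
Oscar: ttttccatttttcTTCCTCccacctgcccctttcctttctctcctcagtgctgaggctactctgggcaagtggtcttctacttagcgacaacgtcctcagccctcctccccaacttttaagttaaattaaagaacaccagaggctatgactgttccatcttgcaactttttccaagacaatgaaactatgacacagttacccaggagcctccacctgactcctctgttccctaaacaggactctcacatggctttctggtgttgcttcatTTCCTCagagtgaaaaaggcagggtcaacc
Eps8l1: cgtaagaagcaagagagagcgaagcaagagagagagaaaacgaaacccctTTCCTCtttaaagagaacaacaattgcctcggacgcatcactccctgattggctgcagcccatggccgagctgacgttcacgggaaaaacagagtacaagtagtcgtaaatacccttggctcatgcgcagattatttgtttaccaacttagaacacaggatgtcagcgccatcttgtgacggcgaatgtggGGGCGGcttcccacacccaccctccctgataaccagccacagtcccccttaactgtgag
Gm15510: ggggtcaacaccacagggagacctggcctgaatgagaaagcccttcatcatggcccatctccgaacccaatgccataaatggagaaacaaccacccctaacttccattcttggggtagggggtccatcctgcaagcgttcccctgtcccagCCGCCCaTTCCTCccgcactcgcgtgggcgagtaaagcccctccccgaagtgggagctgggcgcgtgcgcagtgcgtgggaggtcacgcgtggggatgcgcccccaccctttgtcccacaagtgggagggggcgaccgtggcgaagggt
9330104G04Rik: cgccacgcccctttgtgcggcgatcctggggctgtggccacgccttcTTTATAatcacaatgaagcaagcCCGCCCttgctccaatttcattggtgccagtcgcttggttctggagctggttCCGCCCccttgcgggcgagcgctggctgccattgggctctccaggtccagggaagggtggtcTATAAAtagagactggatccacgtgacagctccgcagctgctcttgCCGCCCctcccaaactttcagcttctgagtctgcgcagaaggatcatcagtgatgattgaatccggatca

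The window of Oscar held 2 CpG and 2 GAGGAA matches and neither of the other motifs, where the median window of 32851 held 7 CpG. Gm15510, 9330104G04Rik and Ccdc61 had 18, 16 and 17 CpG. GGGCGG was found in 1 or more copies in 7 of the 8 windows and in 35.7% of all windows, GAGGAA in 4 of the 8 and 28.3% of all, and TATAAA in 2 of the 8, those of Tnnt1 and 9330104G04Rik, and 13.6% of all. The E-box CANNTG, which can overlap the others, was in all 8 windows and in 72.3% of all windows. Starts 2 and 3 of Eps8l1 have overlapping windows that hold the same GGGCGG match, so the 8 windows are not independent. Matches are letters only and were not tied to any factor or to the levels below.

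The 10 genes fell into a pair of groups by position. At the first 5, from Oscar to Gm15510, E3H was the line that stood apart. At the other 5, from Zfp264 to Ccdc61, it was E2H. The odd line was the same in parental and PS19 mice for all 10 genes, which were selected on line differences in both settings.

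**Figure D1:**
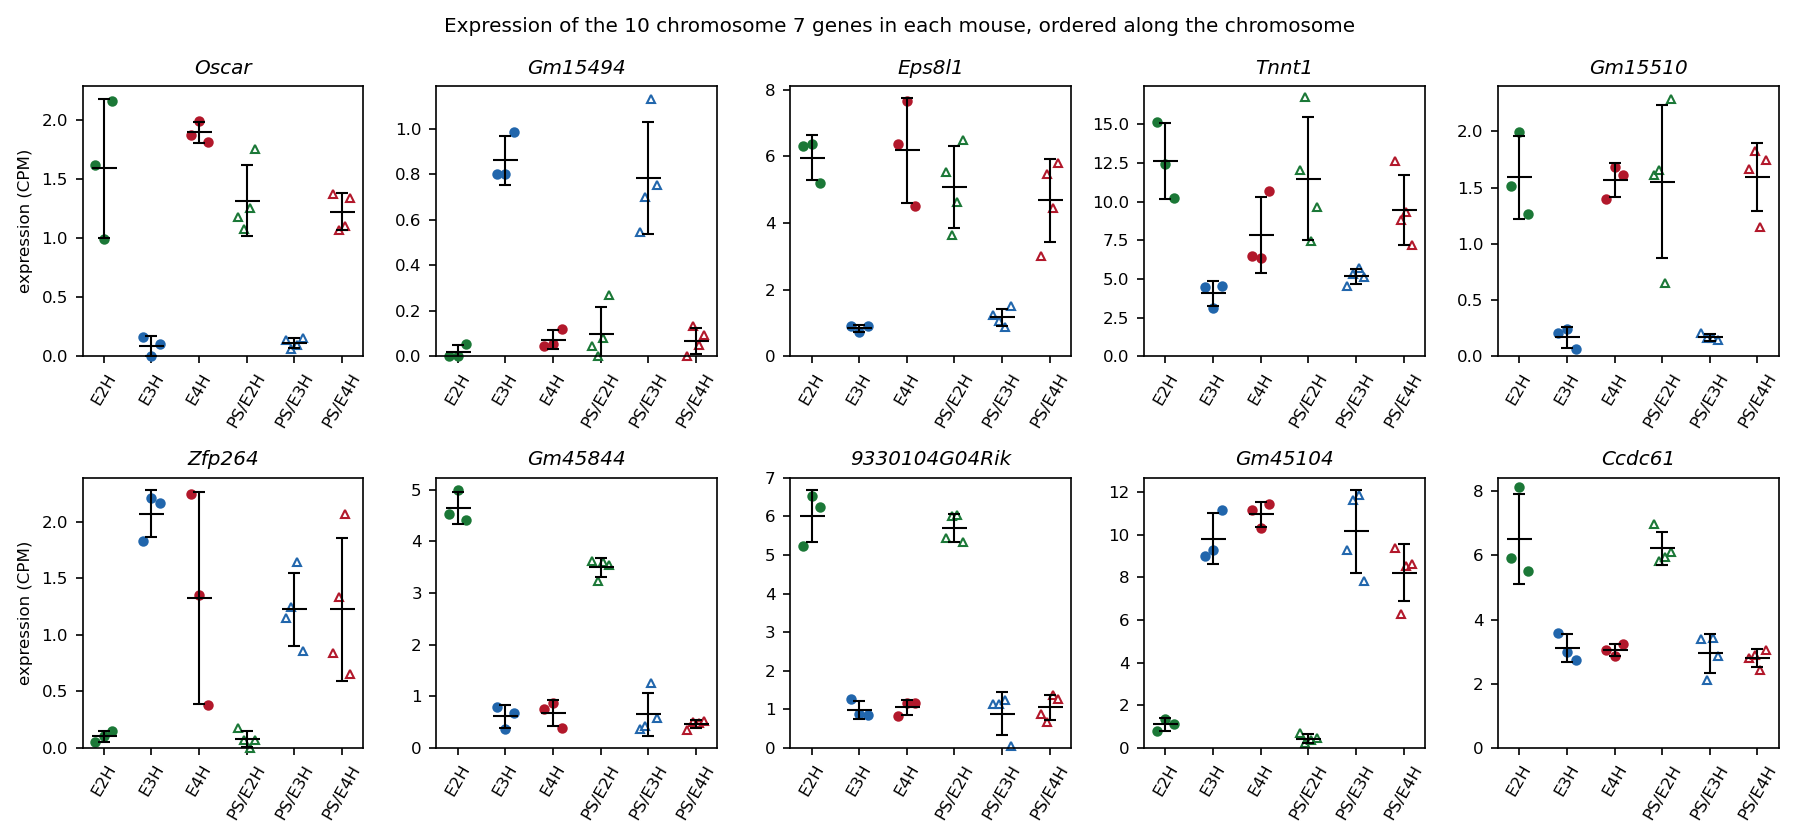
Expression of the 10 genes in every mouse, in CPM on a linear axis from 0. Filled circles are parental and open triangles PS19 mice, black lines give the mean and SD of each group (n = 3 or 4), and the panels follow chromosomal order. In the top row the E3H and PS/E3H mice stand apart, at 0 to 0.163 CPM of Oscar for example, and in the bottom row the E2H and PS/E2H mice, at 5.24 to 6.52 CPM of 9330104G04Rik.

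Oscar encodes the osteoclast-associated receptor, an immunoglobulin-like receptor of myeloid cells that binds collagen. Its level was 1.62, 0.989 and 2.16 CPM in the E2H mice, 0.163, 0 and 0.104 CPM in the E3H mice and 1.87, 1.99 and 1.82 CPM in the E4H mice. The PS/E2H mice had 1.18, 1.08, 1.25 and 1.75 CPM, the PS/E3H mice 0.140, 0.0637, 0.0956 and 0.157 CPM and the PS/E4H mice 1.37, 1.07, 1.10 and 1.34 CPM. Every E3H and PS/E3H mouse was below every other mouse, with 0 to 12 counts against 56 to 157. The log2 fold change was 4.34 (SE 0.586) for E4H over E3H, 4.09 (SE 0.718) for E2H over E3H, 3.38 (SE 0.374) for PS/E4H over PS/E3H and 3.49 (SE 0.388) for PS/E2H over PS/E3H. The E2H and E4H lines were close to each other, with a log2 fold change of 0.26 (SE 0.295) for E4H over E2H and overlapping mice. In whole forebrain, fewer cells that make a transcript and less of it per cell cannot be told apart. The summed level of 6 osteoclast markers was 5.6 to 15.5 CPM over all mice, and in the parental mice 7.24 to 8.77 in E2H, 7.26 to 8.76 in E3H and 5.6 to 8.59 CPM in E4H, so the lines overlapped.

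Eps8l1 encodes a relative of EPS8, an adaptor that links receptor tyrosine kinases to actin through RAC. It was at 6.33, 6.38 and 5.19 CPM in E2H, 0.909, 0.720 and 0.908 CPM in E3H and 6.38, 7.66 and 4.52 CPM in E4H mice. In PS19 mice it was at 5.53, 3.66, 4.63 and 6.51 CPM with APOE2, 1.24, 1.07, 0.892 and 1.5 CPM with APOE3 and 3.01, 5.47, 4.45 and 5.80 CPM with APOE4. The APOE3 mice were lowest in both settings, with no overlap. E4H exceeded E3H by a log2 fold change of 2.87 (SE 0.230, 7.29-fold) and PS/E4H exceeded PS/E3H by 1.99 (SE 0.253, 3.98-fold). The summed level of 6 surface epithelium markers was 5.28 to 7.28 CPM in E2H, 7.26 to 9.05 in E3H and 5.35 to 8.70 CPM in E4H mice, and in PS19 mice the 3 ranges overlapped.

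Gm15510, an antisense RNA that spans Ccdc106, was low in the same mice. It had 1.51, 2.0 and 1.27 CPM in E2H, 0.203, 0.240 and 0.0648 CPM in E3H and 1.40, 1.69 and 1.61 CPM in E4H. Among PS19 mice the levels were 1.61, 1.66, 0.65 and 2.29 CPM in PS/E2H, 0.211, 0.159, 0.159 and 0.143 CPM in PS/E3H and 1.66, 1.83, 1.15 and 1.74 CPM in PS/E4H. All 7 APOE3 mice were at or below 0.240 CPM and all 14 others at or above 0.65 CPM. The 4 log2 fold changes over APOE3 lay between 3.19 (SE 0.421, PS/E2H) and 3.23 (SE 0.312, PS/E4H), so the parental and PS19 differences were nearly equal. Of its exon bases, 31.1% lie opposite exons of Ccdc106, and whether the counting used strand is not given in the sources used here, so reads of both may be mixed. Ccdc106 itself had 23.1 ± 1.54 CPM in E3H and 22.7 ± 1.69 CPM in E4H mice (SD, n = 3 each; log2 fold change -0.02, SE 0.0858, adjusted p = 0.987, edgeR).

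Tnnt1, the slow skeletal muscle form of troponin T, had the smallest differences of this group and the most counts, 197 to 1144. The E2H mice had 15.2, 12.4 and 10.3 CPM, the E3H mice 4.49, 3.15 and 4.55 CPM and the E4H mice 6.52, 6.34 and 10.7 CPM. The PS/E2H mice had 12, 16.8, 7.49 and 9.66 CPM, the PS/E3H mice 4.56, 5.32, 5.70 and 5.12 CPM and the PS/E4H mice 12.6, 8.81, 9.33 and 7.22 CPM. APOE3 mice were again lowest without overlap, and APOE4 mice lay between the other lines, overlapping with APOE2 mice. Among parental mice the overlap came from E4H replicate 3, a mouse with Ddx3y, and without it the log2 fold change of E4H over E2H was -0.97 (SE 0.194) in place of -0.68. The PS/E2H mouse with Ddx3y, at 16.8 CPM, was also the highest of its group, the PS/E4H mice with Ddx3y were the highest and the lowest of theirs, and the part of sex was not tested. E2H exceeded E3H by a log2 fold change of 1.63 (SE 0.199) and E4H exceeded E3H by 0.95 (SE 0.225), under the limit of 2-fold. Skeletal muscle markers overlapped between lines, their sum over 8 genes being 21 to 30.6 CPM in E2H, 25 to 28.1 in E3H and 23.5 to 27.9 CPM in E4H. Thalamic markers, summed over 6 genes, spanned 291 to 485 CPM in E2H, 235 to 341 in E3H and 165 to 332 CPM in E4H. Their part in the level of Tnnt1 was not tested.

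Gm15494, an antisense RNA that overlaps the start of Eps8l1 on the other strand, ran the opposite way and was high only with APOE3. The E3H mice had 0.800, 0.801 and 0.986 CPM against 0, 0 and 0.0551 CPM in E2H and 0.0446, 0.0531 and 0.121 CPM in E4H. The PS/E3H mice had 0.548, 0.701, 1.13 and 0.756 CPM against 0.0432, 0, 0.0812 and 0.270 CPM in PS/E2H and 0, 0.132, 0.0487 and 0.0933 CPM in PS/E4H. The 7 APOE3 mice held 39 to 76 counts and the other 14 mice 0 to 16. The log2 fold change was -3.52 (SE 0.520) for E4H over E3H and -3.48 (SE 0.669) for PS/E4H over PS/E3H. That for E2H over E3H, -5.36 (SE 0.867), rests on 4 counts in the 3 E2H mice, depends on how low counts are treated and ranged from -8.90 to -4.77 when a mouse was left out. Only 59 exonic bases are shared with Eps8l1, 10.6% of the exons of Gm15494, and these genes differed in opposite directions between lines.

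In the second group Zfp264, a zinc finger relative in the neighbourhood of the imprinted Peg3 cluster, was nearly absent in E2H. It had 0.0531, 0.106 and 0.151 CPM in E2H, 1.83, 2.21 and 2.17 CPM in E3H and 2.25, 1.35 and 0.377 CPM in E4H. The PS/E2H mice had 0.173, 0.0684, 0 and 0.0674 CPM, the PS/E3H mice 1.15, 1.24, 1.64 and 0.855 CPM and the PS/E4H mice 0.840, 1.33, 2.06 and 0.653 CPM. All 7 APOE2 mice were below every other mouse, at 0 to 12 counts against 28 to 167. E2H was below E3H by a log2 fold change of -4.31 (SE 0.399) and PS/E2H below PS/E3H by -3.93 (SE 0.644). The spread within APOE4 was wide, and its 3 mice with Ddx3y had the lowest values, 0.377 CPM in E4H against 1.35 and 2.25 CPM in the other mice, and 0.653 and 0.840 CPM in PS/E4H against 1.33 and 2.06 CPM. The single PS/E2H mouse with Ddx3y was within the range of its group, and the part of sex in these levels was not tested. Zfp264 shares 7.10% of its 50-base stretches with other genes and 1.21% of its 100-base stretches.

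Gm45104 was also low in E2H. Its level was 0.796, 1.36 and 1.13 CPM in E2H, 9.0, 9.29 and 11.2 CPM in E3H and 11.2, 10.3 and 11.4 CPM in E4H. With tau it was 0.691, 0.222, 0.374 and 0.455 CPM in PS/E2H, 9.29, 11.6, 11.9 and 7.83 CPM in PS/E3H and 9.39, 6.28, 8.55 and 8.63 CPM in PS/E4H. APOE2 mice lay far below the rest, at 13 to 82 counts against 381 to 862. The log2 fold change was -3.18 (SE 0.220, 9.06-fold) for E2H over E3H and -4.53 (SE 0.303, 23.1-fold) for PS/E2H over PS/E3H, and it was 3.34 (SE 0.209) and 4.22 (SE 0.301) for APOE4 over APOE2 in parental and PS19 mice.

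9330104G04Rik was high with APOE2. It had 5.24, 6.52 and 6.25 CPM in E2H, 1.26, 0.865 and 0.843 CPM in E3H and 0.833, 1.17 and 1.17 CPM in E4H. The PS/E2H mice had 5.43, 6.0, 6.04 and 5.33 CPM, the PS/E3H mice 1.12, 1.13, 1.23 and 0.0570 CPM and the PS/E4H mice 0.889, 0.676, 1.36 and 1.26 CPM. No APOE2 mouse overlapped with another line, and 1 PS/E3H mouse, replicate 4, had 4 counts where the others of its group had 71 to 80. E2H exceeded E3H by a log2 fold change of 2.59 (SE 0.223), PS/E2H exceeded PS/E3H by 2.68 (SE 0.557), or by 2.29 without replicate 4 of PS/E3H, and PS/E4H was below PS/E2H by -2.44 (SE 0.230).

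Gm45844, a predicted protein-coding gene in a vomeronasal receptor cluster, followed the same lines. It had 4.52, 5.0 and 4.40 CPM in E2H, 0.800, 0.368 and 0.674 CPM in E3H and 0.759, 0.863 and 0.390 CPM in E4H. The PS19 values were 3.61, 3.23, 3.61 and 3.54 CPM in PS/E2H, 0.365, 0.414, 1.26 and 0.570 CPM in PS/E3H and 0.339, 0.494, 0.471 and 0.529 CPM in PS/E4H. APOE2 mice were highest without overlap, by a log2 fold change of 2.90 (SE 0.284) for E2H over E3H and 2.42 (SE 0.364) for PS/E2H over PS/E3H. This gene is uncertain, since 42.6% of its 50-base stretches also occur in other genes and 33.3% of its exon bases lie in exons of Vmn2r29 on the same strand. Vmn2r29 had 0.333 ± 0.0670 CPM in E2H and 0.316 ± 0.137 CPM in E3H (SD, n = 3 each), whereas Gm18190, a pseudogene inside Gm45844, had 5 to 19 counts in E2H, 13 to 32 in PS/E2H and 0 to 2 in all other mice.

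Ccdc61, which encodes a coiled-coil protein of the centriole, had the smallest differences of the second group. It had 5.93, 8.13 and 5.51 CPM in E2H, 3.59, 2.99 and 2.75 CPM in E3H and 3.03, 2.85 and 3.23 CPM in E4H. The PS/E2H mice had 6.98, 5.83, 5.96 and 6.12 CPM, the PS/E3H mice 3.38, 2.10, 3.41 and 2.87 CPM and the PS/E4H mice 2.81, 2.90, 2.42 and 3.06 CPM. The 7 APOE2 mice were above all others, by a log2 fold change of 1.06 (SE 0.198) for E2H over E3H and 1.08 (SE 0.180) for PS/E2H over PS/E3H, close to 2-fold both times. APOE3 and APOE4 mice overlapped, with a log2 fold change of -0.03 (SE 0.172) for E4H over E3H and -0.08 (SE 0.197) in PS19 mice.

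Per length, in the deposited FPKM, Tnnt1 was the most abundant of the 10 genes, at 1.38 to 6.78 over the 21 mice with a median of 3.13. Gm45104 reached 2.62, Ccdc61 2.49, Gm15494 1.92, Gm15510 1.75, 9330104G04Rik 1.63, Eps8l1 1.17 and Oscar 1.06 FPKM at most, and Zfp264 and Gm45844 stayed at or below 0.762 and 0.624. These were low levels. In the low lines of Oscar, Gm15494, Gm15510 and Zfp264 every mouse held 0 to 16 counts, where counting error is large.

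**Figure D2:**
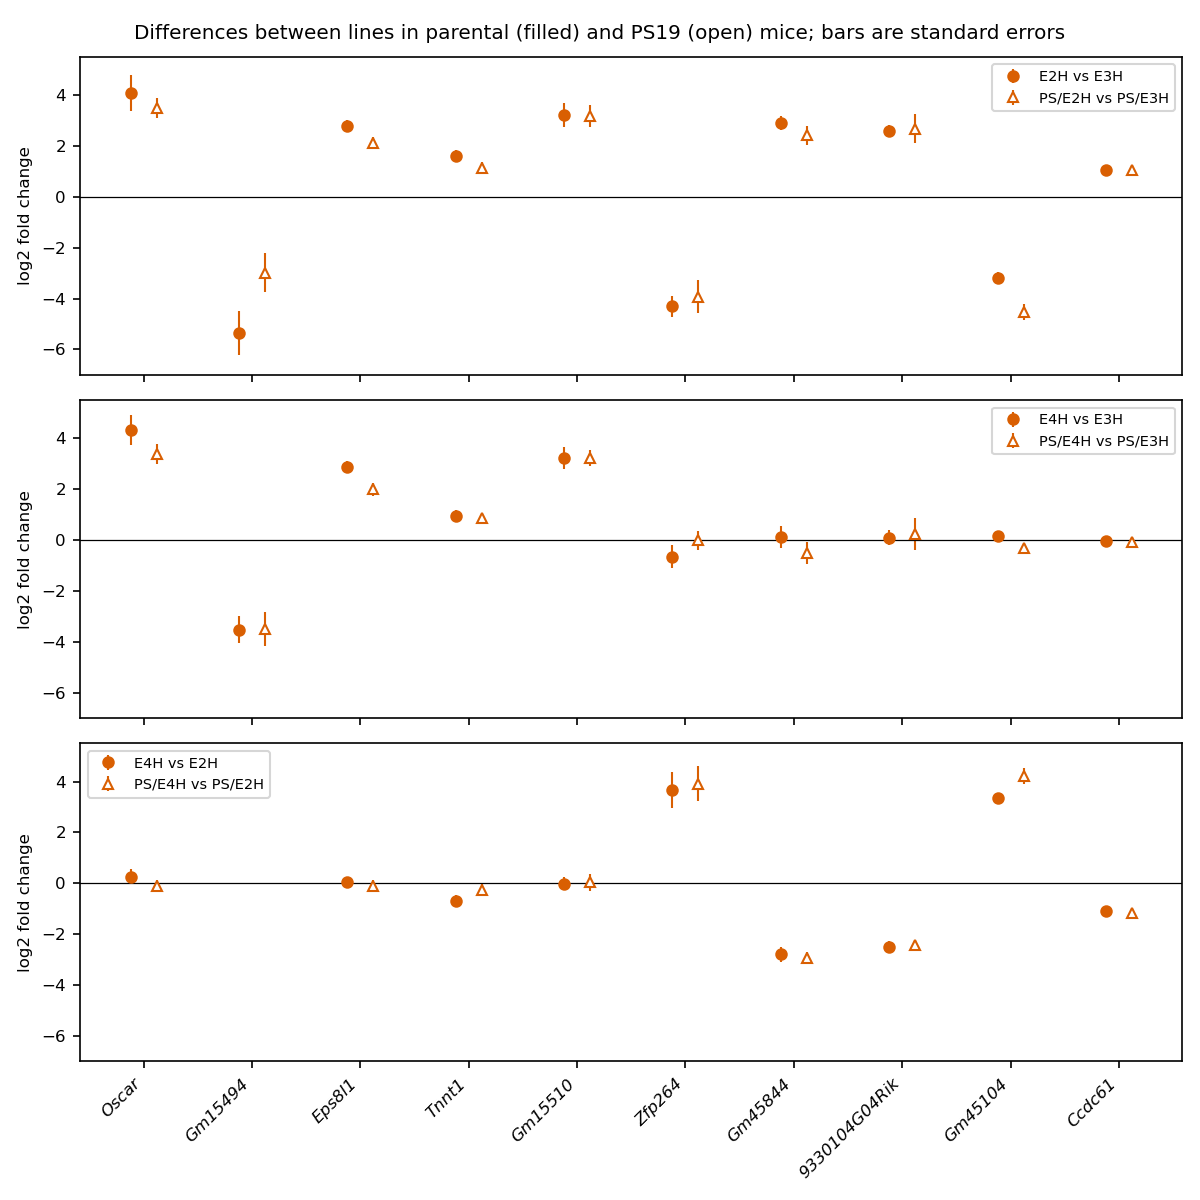
Log2 fold change of each of the 10 genes between lines (y axis) in parental (filled circles) and PS19 mice (open triangles), with standard errors and the genes in chromosomal order. The top panel sets APOE2 over APOE3, the middle APOE4 over APOE3 and the bottom APOE4 over APOE2; in the middle panel the first 5 genes and in the bottom panel the last 5 lie away from 0, for example Oscar at 4.34 and 3.38 and Gm45104 at 3.34 and 4.22.

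As a description of the rule that picked them, the 10 genes can be counted by call, an edgeR adjusted p under 0.05 over all genes with a fold of at least 2. For E2H over E3H, 7 of the 10 were called, and 0.144% of all 20797 tested genes were. In E4H over E3H 4 of 10 were called (0.1% of all tested) and in E4H over E2H 3 of 9 (0.187%). In PS19 mice 5 of 10 were called for PS/E2H over PS/E3H (0.108%), 3 of 10 for PS/E4H over PS/E3H (0.0197%) and 4 of 9 for PS/E4H over PS/E2H (0.109%). Gm15494 was not tested between APOE4 and APOE2 lines because of low counts. Nothing is read from these shares, since calls in these contrasts chose the genes. Counted by overlap, all 10 genes separated the mice of E2H from E3H (23.3% of all genes did) and of PS/E2H from PS/E3H (5.37%). The 5 genes of the first group separated E4H from E3H (12.7%) and PS/E4H from PS/E3H (3.85%), and the 5 of the second separated E4H from E2H (21.3%) and PS/E4H from PS/E2H (6.82%). These comparisons share groups: each line enters 2 of the 3 in its setting.

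Calls rested on few mice. The count for PS/E4H over PS/E3H was 0 to 3 when a mouse was left out and 0 without the mice with Ddx3y, where 2 PS/E4H mice remained, and that for E4H over E3H was 1 to 3 when a mouse was left out and 2 without the mouse with Ddx3y. Gm15510 was called for E2H over E3H in 0 of the 6 fits with a mouse left out and Tnnt1 in 3 of them. With a mouse left out, the log2 fold change of PS/E4H over PS/E3H was 3.20 to 3.56 for Oscar and 1.87 to 2.16 for Eps8l1. In Zfp264 the E4H to E3H difference, -0.65 (SE 0.465), was -0.20 (SE 0.272) without the E4H mouse with Ddx3y.

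Over the whole table, 60 genes were called in at least 1 of the 6 comparisons between lines. Of these, 12 lay on chromosome 7, all 12 within 20 Mb of Apoe, and no called gene of the chromosome lay further out. The 10 genes described here are 10 of those 12. Oscar, at 16.1 Mb, was the most distant of the 12 inside the limit of 20 Mb. By comparison, 0.571% to 1.35% of tested genes within 20 Mb of Apoe were called, and 0.00505% to 0.178% of those elsewhere. Nothing is read from these shares, since the 10 genes were chosen by call and by this same window. The 2 others of the 12, Lgals4 and Gm44954, lay on the far side of Apoe. Lgals4, which encodes the lectin galectin 4, starts 9.13 Mb beyond Apoe and was at 2.40 ± 0.571 CPM in PS/E2H, 0.754 ± 0.139 CPM in PS/E3H and 0.579 ± 0.210 CPM in PS/E4H (SD, n = 4 each; log2 fold change 1.66 over PS/E3H with adjusted p = 0.0407, and -2.05 for PS/E4H over PS/E2H with adjusted p = 0.0327, edgeR). In parental mice it was at 1.87 ± 0.781, 0.812 ± 0.153 and 0.883 ± 0.0642 CPM (SD, n = 3 each) in the same order of lines and was not called. Gm44954, a pseudogene 10.1 Mb beyond Apoe, was at 0.134 ± 0.0456 CPM in PS/E2H and 0.834 ± 0.203 CPM in PS/E3H (SD, n = 4 each; log2 fold change -2.63, adjusted p = 0.0499, edgeR). Both had E2H as the odd line, as the nearer group of 5 had.

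The other genes between the 10 were not called by edgeR. This follows from how the 10 were chosen, since every gene called on their side of Apoe is among them. Nothing is read from it. Of genes tested in all 6 comparisons, 53 others lie from Oscar to Gm15510, 21 from there to Zfp264, 5 from Zfp264 to Gm45844, 60 from Gm45844 to 9330104G04Rik, 12 from there to Ccdc61 and 43 from Ccdc61 to Apoe. Of these 194, edgeR called 0 in any of the 6 comparisons and DESeq2 called 6 in at least 1 (Tmc4, Ptprh, Gm45351, Pglyrp1, Mill2 and Nanos2). In at least 1 comparison 94 had an unadjusted edgeR p under 0.05, and no share over all genes was counted for this. By stretch, the median of the largest absolute log2 fold change of the 194 was 0.36 to 0.58. Genes too low to be tested in any 1 comparison were left out, so genes nearly absent in some lines are missing here. Gm29443 and C5ar2, picked for their size, were at 5.03 and 2.67 for E2H over E3H. They were not called there and were not tested for E4H over E3H. Apoe was at 12 ± 0.759 CPM in E3H, 14.8 ± 1.40 CPM in E2H and 13.2 ± 1.31 CPM in E4H mice (SD, n = 3 each), as counted on the mouse gene. It was not called between lines, the largest difference being a log2 fold change of 0.30 (SE 0.118, adjusted p = 0.319, edgeR) for E2H over E3H. The study mapped reads to the mouse genome, so these values are not a measure of the human APOE transcript.

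**Figure D3:**
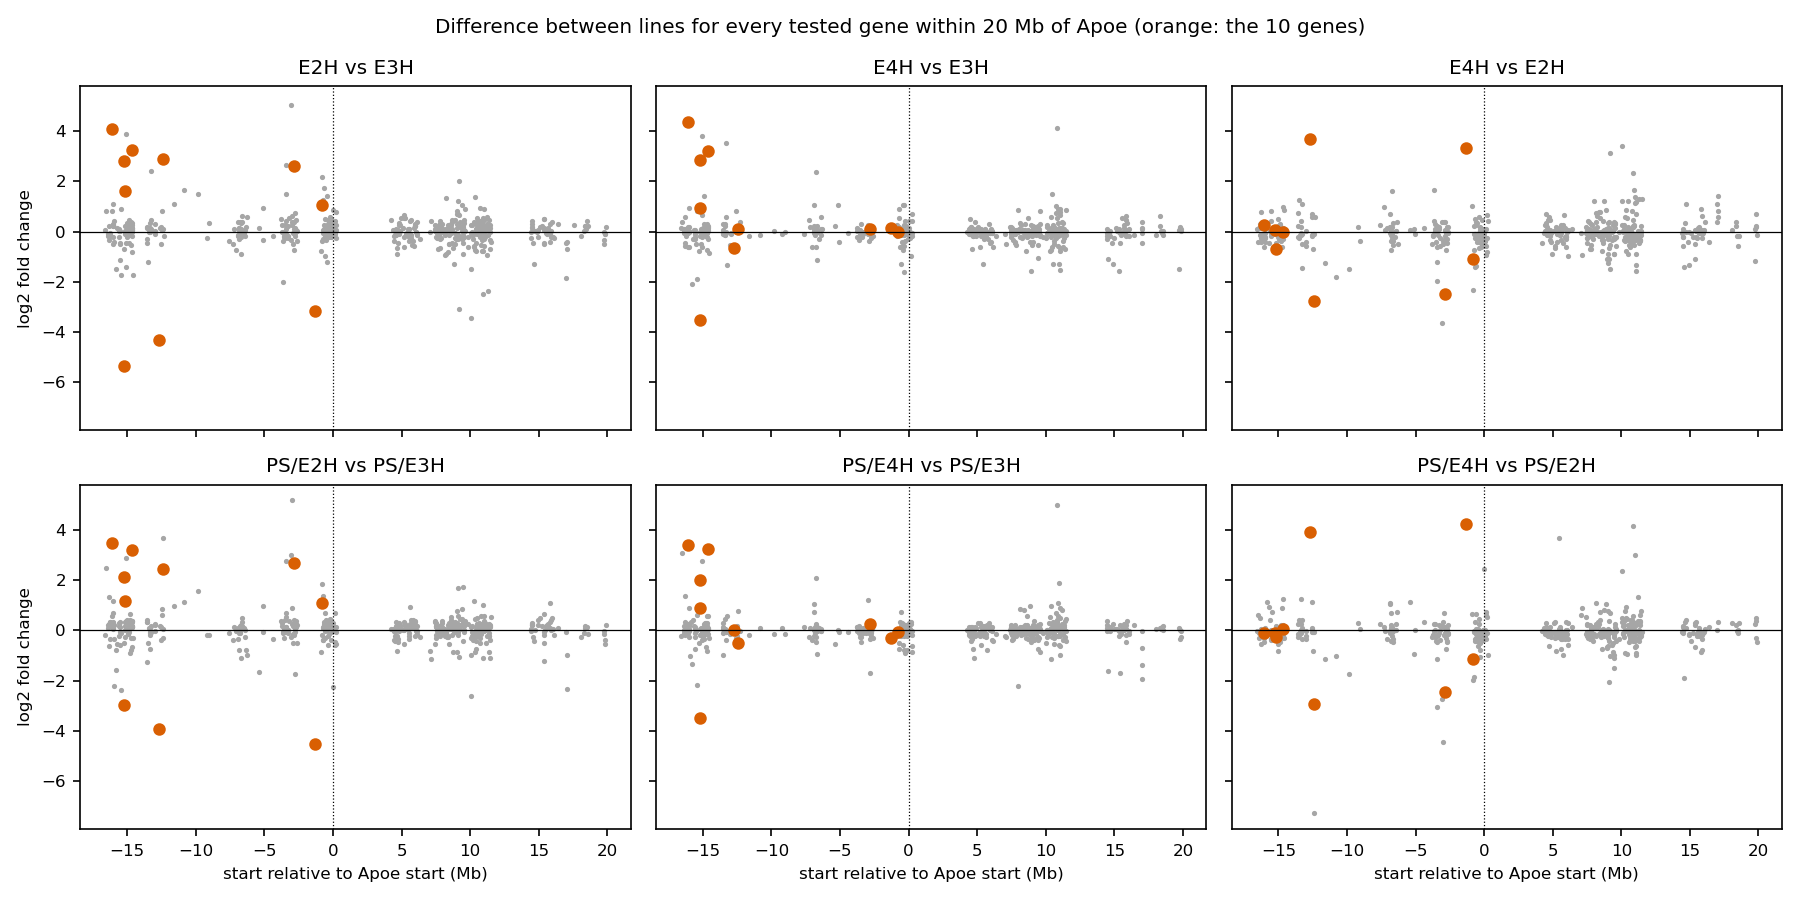
Log2 fold change (y axis) of every tested gene within 20 Mb of Apoe against the distance of its start from that of Apoe (x axis, Mb; the dotted line is Apoe), for the 3 comparisons between lines in parental (top) and PS19 mice (bottom). The 10 genes, orange, all lie to the left of Apoe, from -16.1 to -0.789 Mb, and the other genes are grey.

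Within 250 kb of Eps8l1, 14 genes other than the 10 were tested for E4H over E3H. The largest difference was at Ptprh, a receptor-type tyrosine phosphatase 143 kb away, with a log2 fold change of 3.80 (SE 0.619, adjusted p = 0.0535, edgeR), which missed the threshold but was called by DESeq2, and 2.75 in PS/E4H over PS/E3H. Gm15931 was at -1.90 (SE 1.16) and Lilra5, a leukocyte receptor gene, at 0.80 (SE 0.938). Rdh13, a mitochondrial retinol dehydrogenase gene whose start is 15.0 kb from that of Eps8l1, was chosen after its values were seen: it was the 1 neighbour with an adjusted p under 0.05, lower in E4H by -0.76 (SE 0.0804, adjusted p = 0.00347, edgeR) and in E2H by -0.68 (adjusted p = 0.0240), short of 2-fold. Around Oscar 16 others were tested and 0 reached an adjusted p under 0.05 by edgeR, and DESeq2 called 0. Of these, 3 had an unadjusted p under 0.05, for which no share over all genes was counted. The largest difference was at Tmc4, 0.92 (SE 0.193, adjusted p = 0.210, edgeR), then Pirb at -0.62 and Gm15927 at -0.60.

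Over all 21 mice, the 10 genes varied together by group. Among the first 5 genes the absolute Pearson r of log2 CPM was 0.737 to 0.949 over their 10 pairs, and among the second 5 it was 0.753 to 0.927. Pairs with 1 gene from each had 0.389 to 0.668 (25 pairs). The 21 mice fall into 6 groups whose means differ, so these values are a description and no p is given. The genes most like each were taken from 22863 genes. Of the 50 places in the 10 top-5 lists, 30 were held by genes within 20 Mb of Apoe, 12 of them by the 10 genes themselves. Of the 22863 genes, 2.49% lie within 20 Mb of Apoe. Nothing is read from the 30 of 50, since the 10 genes were chosen by position and by line. Eps8l1 was the nearest to Oscar (r = 0.949) and to Gm15510 (0.928), Oscar to Eps8l1, Ccdc61 to Gm45844 and the reverse (0.927), and Gm45104 to Zfp264 (0.917). Zfp14 came first for Gm45104 (0.954), Mrps12 for 9330104G04Rik (0.845), Gas5 on chromosome 1 for Tnnt1 (0.838) and Gm21860 on chromosome Y for Gm15494 (0.791).

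**Figure D4:**
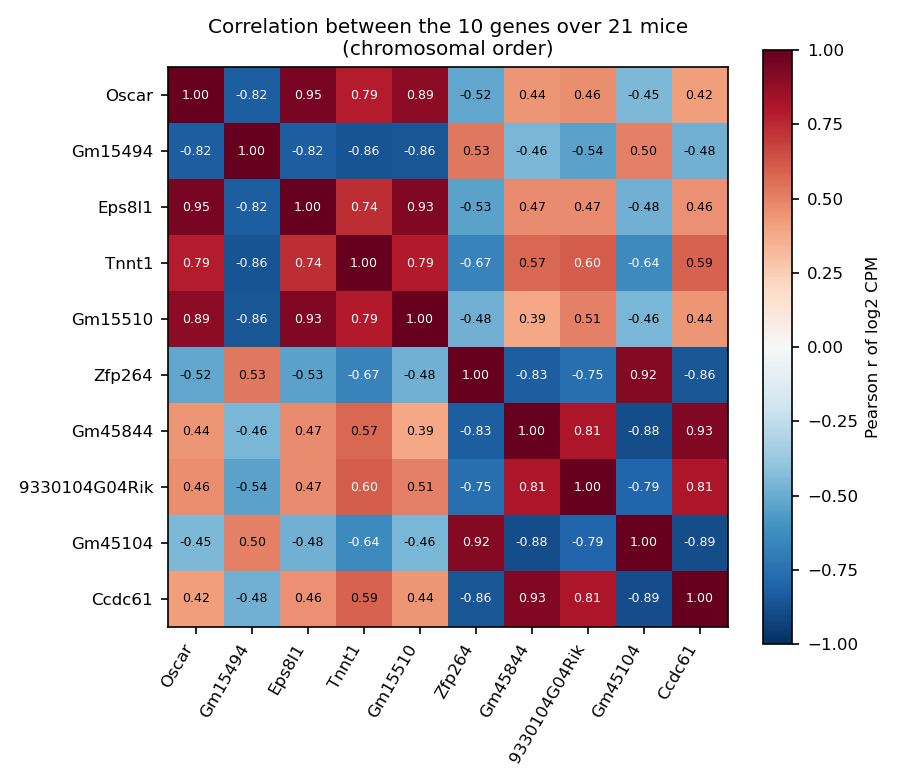
Pearson r of log2 CPM between each pair of the 10 genes over 21 mice, in chromosomal order (red positive, blue negative, number in each cell). The upper left and lower right blocks of 5 genes hold absolute values from 0.737 and 0.753 up, and the off-diagonal blocks stay at or below 0.668.

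The comparison of PS19 with parental mice of the same line did not itself choose the genes and was tested. Its groups also entered the differences between lines that did. The p-values within a single line are therefore not independent of that choice and are a description. None of the 10 was called. The counts by edgeR were 0 of 8 tested in PS/E2H over E2H (0.485% of all genes were called), 0 of 9 in PS/E3H over E3H (1.32%), 0 of 9 in PS/E4H over E4H (2.98%) and 0 of 10 over the 3 lines together (2.82%). DESeq2 likewise called 0 in each. With these shares over all genes, a count of 0 in 8 to 10 genes says little about them. At an unadjusted p under 0.05 there were 2, 1, 2 and 1 of the 10 genes (edgeR). Of all tested genes, 2203 of 20617, 4541 of 21251, 6282 of 20844 and 7522 of 22863 had such a p. Gm15494 and Zfp264 in APOE2, Oscar in APOE3 and Gm15494 in APOE4 mice were too low to be tested.

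Gm45104 was the 1 gene of the 10 with an adjusted p under 0.05, over the 3 lines and short of 2-fold. Over the 3 lines it was lower in PS19 mice by a log2 fold change of -0.56 (SE 0.137, 1.47-fold, adjusted p = 0.00557, edgeR). Of all genes, 21.8% had an adjusted p under 0.05 in this test, in either direction. By line it was -1.32 (SE 0.424, adjusted p = 0.257) with APOE2, where 4 of 4 PS/E2H mice were below all 3 E2H mice, 0.04 (SE 0.160, adjusted p = 0.935) with APOE3 and -0.42 (SE 0.144, adjusted p = 0.0742, edgeR) with APOE4, where 4 of 4 PS/E4H mice were below all 3 E4H mice. The interaction between APOE2 and APOE3 was -1.35 (SE 0.348) with an unadjusted p of 0.000905 and an adjusted p = 0.696 (edgeR). A difference between lines in the effect was not shown. The interaction p-values are a description, since differences between lines in both settings chose the gene.

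The other 9 genes ranged from -0.42 (Zfp264, SE 0.353) to 0.67 (Gm15494, SE 0.560) over the 3 lines, with adjusted p from 0.339 to 1.0 (edgeR). Precision differed widely: the 95% interval of the log2 fold change was -0.29 to 0.11 for Ccdc61, -0.33 to 0.22 for Eps8l1 and -0.12 to 0.44 for Tnnt1, but -0.43 to 1.77 for Gm15494, which leaves room for a change of over 2-fold. In single lines, Oscar was at -0.64 (SE 0.214, adjusted p = 0.0710) in PS/E4H over E4H, Zfp264 at -0.77 (SE 0.259, adjusted p = 0.114) in PS/E3H over E3H and Gm45844 at -0.41 (SE 0.158, adjusted p = 0.365) in PS/E2H over E2H (edgeR), each with all PS19 mice below all parental mice of that line. Tnnt1 went the other way with APOE3, at 4.56 to 5.70 CPM in PS/E3H above 3.15 to 4.55 CPM in E3H (log2 fold change 0.34, SE 0.173, adjusted p = 0.299, edgeR). In all, 2 of the 10 genes did not overlap between PS19 and parental mice in each line (11.7%, 19.3% and 28.8% of all genes for APOE2, APOE3 and APOE4). The median over the tested genes was -0.19, -0.01 and -0.12 by line and -0.09 over the 3 lines, where that of all genes was -0.02, -0.00, -0.00 and -0.00. The interaction sets the difference between lines in PS19 mice against that in parental mice. The 10 genes were chosen on those differences, so its p-values for them are a description. The interaction test asks whether a difference between lines changes with tau. It called 0 of the 10 genes and 0% of all genes by edgeR in each of the 3 pairs of lines, and 0 of the 10 by DESeq2, with 1 of the 10 at an unadjusted p under 0.05 in each pair (Gm45104, Eps8l1 and Gm45104). Over all genes 1555, 682 and 2610 had such a p, and DESeq2 called 9, 11 and 198. For Eps8l1 the APOE4 minus APOE3 value was -0.87 (SE 0.347, adjusted p = 1.0, edgeR).

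**Figure D5:**
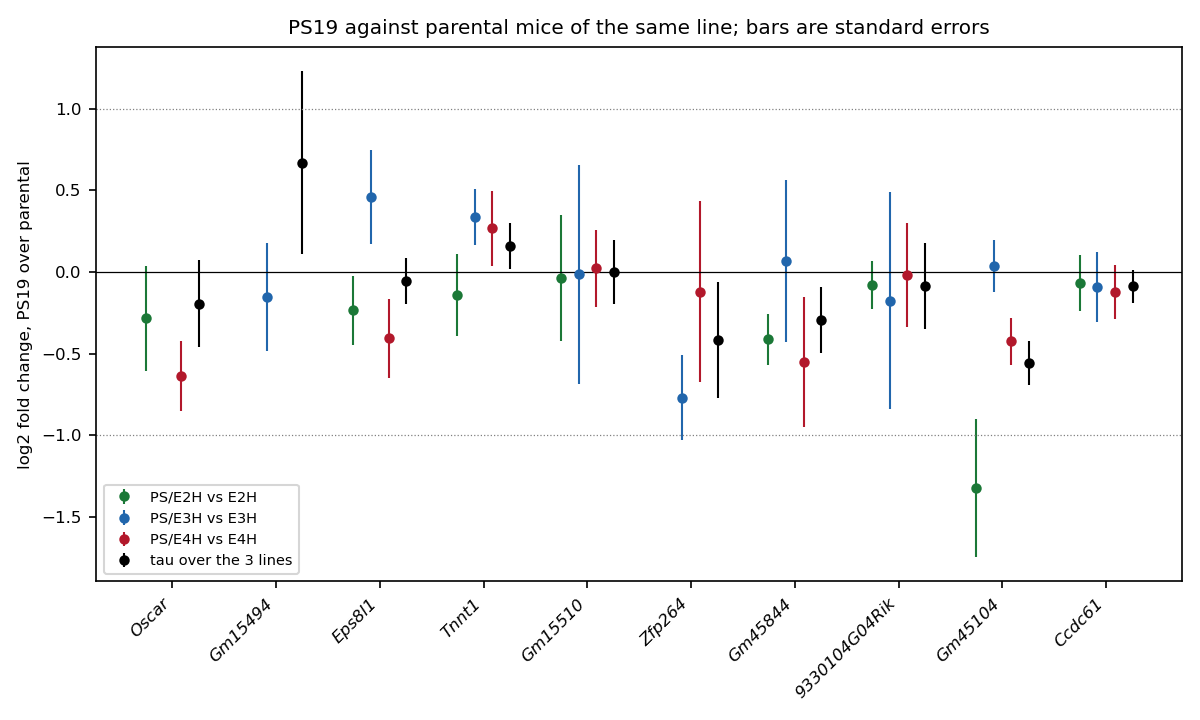
Log2 fold change of PS19 over parental mice (y axis) for the 10 genes in each line and over the 3 lines (black), with standard errors; dotted lines mark 2-fold. Values lie within 2-fold except Gm45104 in APOE2 mice, at -1.32, and genes too low to be tested in a line have no point there.

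Lists of partner genes were counted in the same comparisons. The lists were written from general knowledge, with earlier results of these data known. The EPS8 family and its partners gave 11 genes, troponins and tropomyosins 11 and OSCAR signalling genes with collagen ligands 10. Co-repressors of KRAB zinc finger proteins gave 8 and centriole appendage proteins 10, for 50 genes in all. In each of the 6 comparisons between lines 47 or 48 were tested and 0 were called by edgeR or by DESeq2. In each, 3 to 10 had an unadjusted p under 0.05, and no share over all genes was counted for this. Of all genes 0.0197% to 0.187% were called, so a count of 0 in lists of this size says little about them. The median of the OSCAR list was -0.37 for E2H over E3H and -0.30 for E4H over E3H, where the median of all genes was -0.01 and -0.00, against 4.09 and 4.34 for Oscar.

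In PS19 mice members of some lists changed. The OSCAR list was written with earlier results of these data known. It holds Trem2, which the study reports as higher in PS19 mice of each line, so nothing is read from the share of this list. In the OSCAR list 3 of 10 were called higher and 0 lower over the 3 lines, where 2.82% of all genes were called. The 3 are myeloid signalling genes: Trem2 rose by a log2 fold change of 1.54 (SE 0.110, adjusted p = 5.45e-09), Tyrobp, an adaptor of activating receptors, by 1.57 (SE 0.122, adjusted p = 2.03e-08) and Fcer1g, the adaptor that OSCAR signals through, by 1.42 (SE 0.111, adjusted p = 2.06e-08, edgeR for each). The 7 others did not reach 2-fold but had adjusted p under 0.05, as 21.8% of all genes had, among them the fibrillar collagen genes Col1a2, at 0.88, and Col2a1, at -0.88. Oscar itself was at -0.19 (SE 0.267, adjusted p = 0.676). The summed level of 6 microglial markers was 360 to 474 CPM in parental and 532 to 967 CPM in PS19 mice, and its part in the rise of these 3 genes was not tested. Among 11 troponin and tropomyosin genes, Tnni2, fast skeletal troponin I, was the 1 called, at 1.94 (SE 0.368, adjusted p = 0.000665), against 0.16 (SE 0.141, adjusted p = 0.474) for Tnnt1. In the EPS8 list, the KRAB list and the centriole list 0 were called (edgeR and DESeq2). There 5, 3 and 5 genes had an unadjusted p under 0.05, as 7522 of all 22863 genes had (edgeR).

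Of 54 markers of brain regions and cell types in 9 lists, edgeR called 0 between lines and DESeq2 called 1, Krt5 in E4H over E2H. By comparison, 2 to 8 had an unadjusted p under 0.05, and no share over all genes was counted for this. With 0.0197% to 0.187% of all genes called by edgeR, this count of 0 says little about the markers. Pituitary markers, summed over 5 genes, were 6.01 to 6.43 CPM in E3H, 1.24 to 3.15 in E2H and 1.80 to 10.6 CPM in E4H, and 0.756 to 3.03 CPM in PS/E3H, 0.991 to 2.29 in PS/E2H and 1.40 to 4.84 CPM in PS/E4H, with Pou1f1 at 3 counts or fewer in every mouse. Their part in the E3H levels of the first 5 genes was not tested.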

How the data were processed

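RNA-seq of mouse forebrain was analysed in 21 mice of 6 groups. The authors made poly(A) stranded libraries, trimmed reads with Cutadapt, aligned them with HISAT2 and assembled transcripts with StringTie (GRCm38.p5, per the submitters' notes). They deposited a table of raw counts per gene and one of FPKM values. How counts were derived and whether strand was used is not given in the sources used here. Columns with no sample numbered 0.

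Counts were tested with edgeR 4.0.16 (quasi-likelihood, TMM, filterByExpr with a minimum count of 10 and a total of 15) in R 4.3.3, on the 2 groups of each comparison, and on all 6 groups for tau over the 3 lines and the interactions. A call needed a Benjamini-Hochberg adjusted p under 0.05 over all tested genes and a fold of at least 2 (interactions: adjusted p alone). CPM are TMM-scaled. Intervals are 95% and normal. Summaries used Python 3.11.15 and pandas 2.3.3. The fits were tested on simulated data.

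The 10 genes and all lists were chosen with earlier results of these data known. Named besides them were list members past the test, the 3 neighbours of Eps8l1 and of Oscar with the largest difference, called genes within 20 Mb of Apoe, and the most alike genes by Pearson r of log2 CPM. Gene positions are from GENCODE M21 (GRCm38) and start-site windows from RefSeq. The labels do not say that mice of a group came from separate litters. With 59265459 to 75932183 counts per mouse, genes with 0 to 16 counts have large counting error.

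Alternatives were DESeq2 1.42.0, its size factors, no count filter, the replicate number as a block, 1 fit over all 6 groups, adjusted p alone, limma 3.58.1 on log2(FPKM + 1) and log2(FPKM + 0.1), shared stretches of 100 bases, leaving out each mouse and, chosen after seeing the data, leaving out the 4 mice with Ddx3y.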

Additional observations from a re-analysis of the deposited data

Results flagged for a closer look

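Of the 30 sets of 4 values (10 genes in 3 PS19 groups), 1 held a mouse far from the rest. PS/E3H replicate 4 had 0.0570 CPM of 9330104G04Rik (4 counts) where the other 3 mice had 1.12 to 1.23 CPM. Chance alone marks about 1 in 20 such groups. Without this mouse the log2 fold change of PS/E2H over PS/E3H was 2.29 in place of 2.68.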

How the results depend on the processing

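The number of the 10 genes called between lines depended on the processing, and the cause was not tested. With limma on log2(FPKM + 1) it was 3 for E2H over E3H, 1 for E4H over E3H, 1 for E4H over E2H, 3 for PS/E2H over PS/E3H, 1 for PS/E4H over PS/E3H and 1 for PS/E4H over PS/E2H. Without a count filter it was 1 for E4H over E3H. In 1 fit over all 6 groups it was 5 for E4H over E2H, 9 for PS/E2H over PS/E3H and 1 for PS/E2H over E2H (Gm45104, -1.30). With DESeq2 it was 5 for E4H over E2H and 10 for PS/E2H over PS/E3H. Without the 4 mice with Ddx3y, an alternative chosen after seeing the data, it was 2 for E4H over E3H, 3 for PS/E2H over PS/E3H, 0 for PS/E4H over PS/E3H and 2 for PS/E4H over PS/E2H. By adjusted p alone 1 gene was called for tau over the 3 lines. Leaving out each mouse gave 5 to 7, 1 to 3, 3 to 4, 3 to 6, 0 to 3 and 3 to 4 in the order of the first list and 0 to 0 for each tau comparison and interaction.

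With the replicate number as a block the count was 1 for E4H over E3H, 3 for PS/E2H over PS/E3H and 0 for PS/E4H over PS/E3H. The numbers did not pair the mice: deviations of 48 pairs with the same number correlated at -0.120 to 0.0955 and those of 135 other pairs at -0.142 to 0.109.

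Gm15510 over the 3 lines, 0.00068, turned to -0.0059 with DESeq2's size factors, -0.0018 without a filter, -0.10 with the block, -0.0045 with DESeq2, -0.035 without the mice with Ddx3y, -0.013 with log2(FPKM + 1) and -0.035 with log2(FPKM + 0.1). 9330104G04Rik turned to 0.034 with the block, and the Gm45104 interaction of APOE4 minus APOE2 to -0.13 with log2(FPKM + 1). With 1 mouse left out, Oscar over the 3 lines ranged from -0.37 to 0.037, Eps8l1 from -0.12 to 0.0056, Gm15510 from -0.13 to 0.11 and 9330104G04Rik from -0.15 to 0.046. The adjusted p of Gm45104 over the 3 lines was 0.000172 to 0.0844 over all alternatives, the highest being that with log2(FPKM + 1). Leaving out the mice with Xist was not run, since 17 of 21 hold it.

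Over all genes DESeq2 called 56, 36, 86, 62, 13 and 68 between lines against 30, 21, 39, 22, 4 and 22 with edgeR, and 260 against 100 for PS/E2H over E2H. Low counts limit the values of Oscar, Gm15494, Gm15510 and Zfp264, whose low lines held 0 to 16 counts in every mouse.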
